A study of Mus musculus with 6 samples.

Results

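The genes described here encode the proteins of the cytosolic ribosome, the particle that translates messenger RNA in the cytoplasm. They were taken from the gene table by name and type: protein coding genes named Rpl or Rps plus a number, the stalk genes Rplp0, Rplp1 and Rplp2, and Rpsa, without the S6 kinases and pseudogenes. The rule found 87 of 32285 genes. Of these, 31 encode proteins of the small subunit, 43 of the large subunit and 3 of the stalk, and these 77 are called core genes below. A further 8 are paralogs of core genes, and 2, Rps19bp1 and Rps23rg1, match by name only and are not ribosomal proteins. The RNA came from radial glial progenitors, the dividing stem cells along the ventricle of the developing cortex, of wild-type mouse neocortex at E10.5. Dissociated cells were cultured and received either DMSO, the solvent, or GSK2837808A, an inhibitor of lactate dehydrogenase, for about 24 h. About 1000 CD133+, DAPI- cells were then sorted per sample and sequenced in bulk with Smart-seq2, giving 3 libraries called DMSO 1 to 3 and 3 called GSK 1 to 3. The dose in the labels, 100 mM, is far above what such a medium would normally hold, and it could not be checked. Whether replicates are separate cultures or animals is not in the labels, so the spread behind each p-value is that between samples and may be technical.

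A ribosome holds 1 copy of nearly every core protein, bound to ribosomal RNA, and the stalk carries several copies of its acidic proteins. The proteins are made in the cytoplasm, escorted by chaperones and importins to the nucleolus, assembled there with ribosomal RNA, and exported as subunits. Proliferating progenitors are known for high ribosome production. In vertebrates the messenger RNAs of ribosomal proteins begin with a terminal oligopyrimidine tract, a run of C and U that lets the kinase complex mTORC1 control their translation through the binding protein Larp1. A read count does not show how much of a transcript is translated.

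The DNA around the annotated starts was searched for runs of C and T, and the sequences below are printed because the tract is a known shared feature of these messenger RNAs. RefSeq promoter sequences on GRCm38.p6 matched 57 of the 77 core genes. Each was searched, on the transcribed strand only, from 30 bases before to 50 bases after the annotated start for its longest unbroken run of C and T, taking the entry with the longest run where a gene had several. A run of at least 8 bases was found in 45 of the 57 core promoters (78.9%), against 5321 of 16772 protein coding promoters searched the same way (31.7%). The median longest run was 10 bases in core promoters and 6 bases in all. A match describes letters anywhere in that window. It is not a measured start of transcription and need not be the terminal tract. The capitals mark the longest run, and each stretch is written 5′ to 3′ on the gene's own strand. Rps6, Rpl15 and Rpl35 show long runs beside the annotated start. Rpl10 and Rpl10a are the core genes called below, Rpl36al and Rpl7l1 are called paralogs, Rps27 is the partner of a paralog, and Rps4x and Rplp0 show core genes whose longest run was 7 bases.
Rps6 (chr4:86857349-86857378, minus strand): ggaagtcgggCCTCTTTTTCgtgacgcctc
Rpl15 (chr14:18270967-18270996, minus strand): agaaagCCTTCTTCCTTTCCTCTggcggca
Rpl35 (chr2:39005115-39005144, minus strand): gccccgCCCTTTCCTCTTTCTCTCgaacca
Rpl10 (chrX:74270836-74270865, plus strand): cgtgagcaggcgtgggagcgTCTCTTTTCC
Rpl10a (chr17:28328572-28328601, plus strand): aagcgctctgCCTTCTTTCCggtttccgcg
Rpl36al (chr12:69184020-69184049, minus strand): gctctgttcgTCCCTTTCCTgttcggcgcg
Rpl7l1 (chr17:46782669-46782698, minus strand): tcgaggcgggccTCTCTaccccgcccggtg
Rps27 (chr3:90213631-90213660, minus strand): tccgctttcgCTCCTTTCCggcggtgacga
Rps4x (chrX:102189342-102189371, minus strand): cgcgcagcctccgaccctaaTTTCTTCgtt
Rplp0 (chr5:115559467-115559496, plus strand): ggaccgcctggTTCTCCTataaaaggcaca
Rpl15 and Rpl35 carry runs of 17 and 18 bases, while the runs of Rpl10 and Rps4x begin at base 41 of the annotated transcript. The run of Rpl10 reaches the downstream end of the searched window and of the printed stretch, so it may continue beyond them. The longest run of Rpl7l1 in the searched window was 5 bases, at the window's upstream end. The bases just before it are also C, so its run continues outside the window and the capitals cut it short. The median log2 fold change, GSK minus DMSO, was -0.01 for the 45 core genes with a run of at least 8 bases and -0.02 for the 12 without.

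The libraries held 7187089 to 10224348 reads, recovered from the deposited normalised values. Radial glial markers were present in every library, with a summed level of 20078 to 20646 normalised reads in DMSO and 10662 to 13151 in GSK libraries, and 8 of 9 were called lower. Reads of red blood cell markers summed to 2391 to 20598 in DMSO and 183780 to 273997 in GSK libraries, and 7 of 8 tested markers were called higher. Neuron markers summed to 6749 to 13766 and 20154 to 24829, and 3 of 6 were called higher. Markers of intermediate progenitors (3 of 4) and of myeloid cells (5 of 7) were also called higher, with summed levels of 520 to 728 against 1120 to 1557 and 68.7 to 261 against 497 to 1043. Mitochondrial transcripts took 0.519% to 0.697% of reads with DMSO and 0.892% to 1.08% with GSK. Fewer cells of a type and less RNA per cell cannot be told apart in such bulk samples, and the part these measures play in the results below was not tested. One library stood apart in the core ribosomal protein genes. In GSK 1 the median core gene lay at -0.36 relative to its DMSO mean on the log2 scale, whereas GSK 2 and GSK 3 lay at 0.16 and 0.15. GSK 1 was the lowest of its group for 76 of 77 core genes and the lowest of all 6 libraries for 65. GSK 1 also held the fewest reads of the 6 libraries, 7187089, and DMSO 1 the next fewest, 7837721. The globin share of GSK 1 was the lowest of its group, 2.21% of reads against 2.88% and 2.91%. It had the most genes with a read, 25585 against 22879 and 23647, and an estimated array weight of 0.35, the lowest of the 6. DMSO 3 was the highest of its group for 75 of 77 core genes, with a median of 0.15 against -0.13 and -0.03 in DMSO 1 and DMSO 2. The results below are therefore also given without GSK 1.

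**Figure D1:**
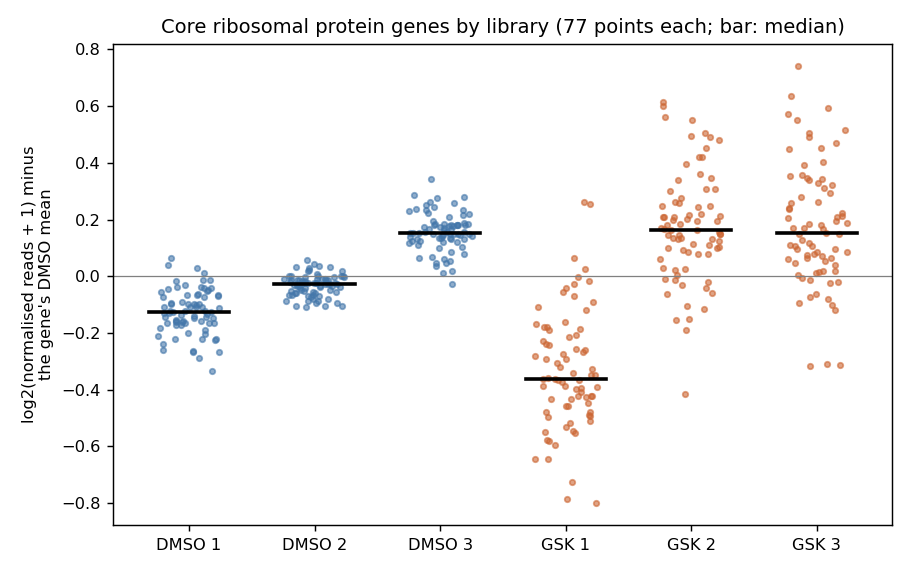
Each point is 1 of 77 core ribosomal protein genes in 1 library, plotted as log2(normalised reads + 1) minus the gene's mean over the 3 DMSO libraries, with a bar at the library median. The points of GSK 1 center on -0.36, those of GSK 2 and GSK 3 on 0.16 and 0.15, and those of the DMSO libraries between -0.13 and 0.15.

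The comparison of GSK with DMSO asks how transcript levels in the sorted samples differed after the lactate dehydrogenase inhibitor. Lactate itself is not measured in these data. With all 6 libraries, most ribosomal protein genes had similar mean levels in both groups. Rpl10, which completes the large subunit, rose 1.45-fold, and Rpl10a, the protein of the mobile L1 stalk, fell to 0.728 of its DMSO level. The paralogs Rpl7l1 and Rpl36al fell to 0.730 and 0.766. These 4 genes passed the test among the 84 tested members (4.76%), where 36.1% of all 15073 tested genes passed (limma on log2(normalised reads + 1), Benjamini-Hochberg adjusted p under 0.05 over all tested genes). By direction, 1 of 84 was called higher against 17.0% of all genes, and 3 of 84 were called lower against 19.1%. At an unadjusted p under 0.05 there were 10 members (11.9%), against 44.9% of all genes.

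With all 6 libraries, the fold changes of the family were small. The median log2 fold change of the 84 members was -0.01 and that of all genes 0.01, with 39 members above 0 and 45 below. The median size of the change, sign ignored, was 0.13 for the members and 0.36 for all genes, while the median standard error was 0.16 and 0.17. No member reached a 2-fold change (0 of 84), against 12.8% of all genes, and the largest was the 0.54 of Rpl10. The 95% interval lay within a 2-fold change either way for 84 of 84 members and for 64.6% of all genes. It lay within a 1.5-fold change for 63 of 84. For members that were not called, a change as large as their interval allows is not excluded with 3 libraries a group. The groups did not overlap for 5 of 84 members (5.95%), against 47.2% of all genes. They were Rpl10, with every GSK library above every DMSO library, and Rpl10a, Rpl12, Rpl7l1 and Rpl36al, with every GSK library below. GSK 1 was the lowest of all 6 libraries for 65 of 77 core genes. In GSK 2 and GSK 3 the median core gene lay above its DMSO mean, at 0.16 and 0.15. A single library therefore bears on the overlap and the median of most members at once.

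**Figure D2:**
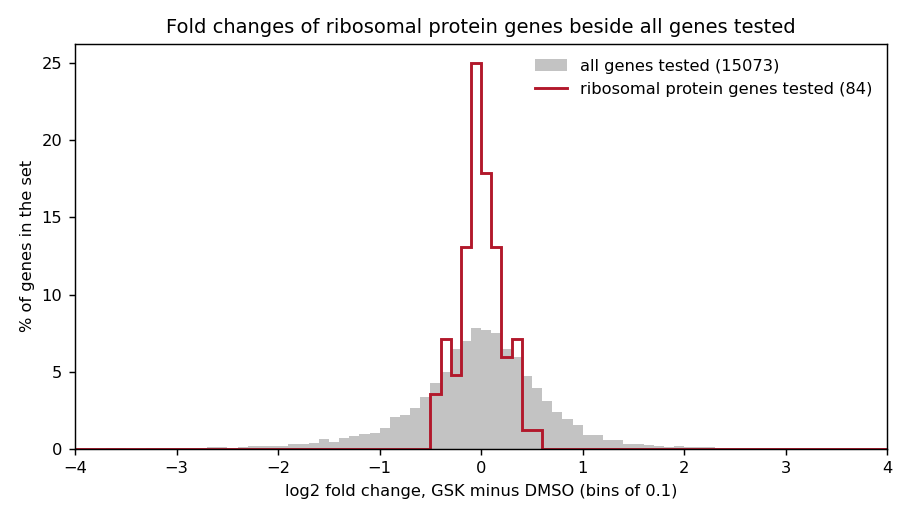
Histogram of log2 fold changes (horizontal axis, GSK minus DMSO, bins of 0.1) as a percent of genes in each set (vertical axis), for the 84 tested ribosomal protein genes (red line) and all 15073 tested genes (grey). The ribosomal protein genes lie between -0.46 and 0.54, inside the wider spread of all genes.

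Without GSK 1 the count was larger and mostly in 1 direction. In that fit 25 members were called, against 41.8% of all genes, and 23 of them were called higher, against 20.4% of all genes, and 2 lower, against 21.4%. The median log2 fold change of the members was then 0.15, with 0.03 for all genes. The 23 comprised 15 large subunit genes, 7 small subunit genes and Rplp0, and the 2 lower were Rpl10a and Rpl7l1. The count and its direction therefore rest on whether GSK 1 is included.

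Count models on the recovered reads named the same 4 genes and a few more. The edgeR quasi-likelihood test called 6 members, against 36.7% of all genes. Of these, Rpl10 and Rpl17 were higher, against 16.8%, and Rpl7l1, Rpl10a, Rpl36al and Rpl12 lower, against 19.9%. DESeq2 called 9 members, against 34.0% of all genes. It added Rps4x, Rplp0 and Rpl7 to the higher genes, 5 members against 15.9%, and called the same 4 lower, against 18.1%. With libraries scaled to equal totals, limma called 10 members, against 35.3% of all genes. Rpl10 and Rps4x were higher, against 13.6%, and 8 lower, against 21.7%, among them the paralogs Rps27l and Rpl22l1.

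**Figure D3:**
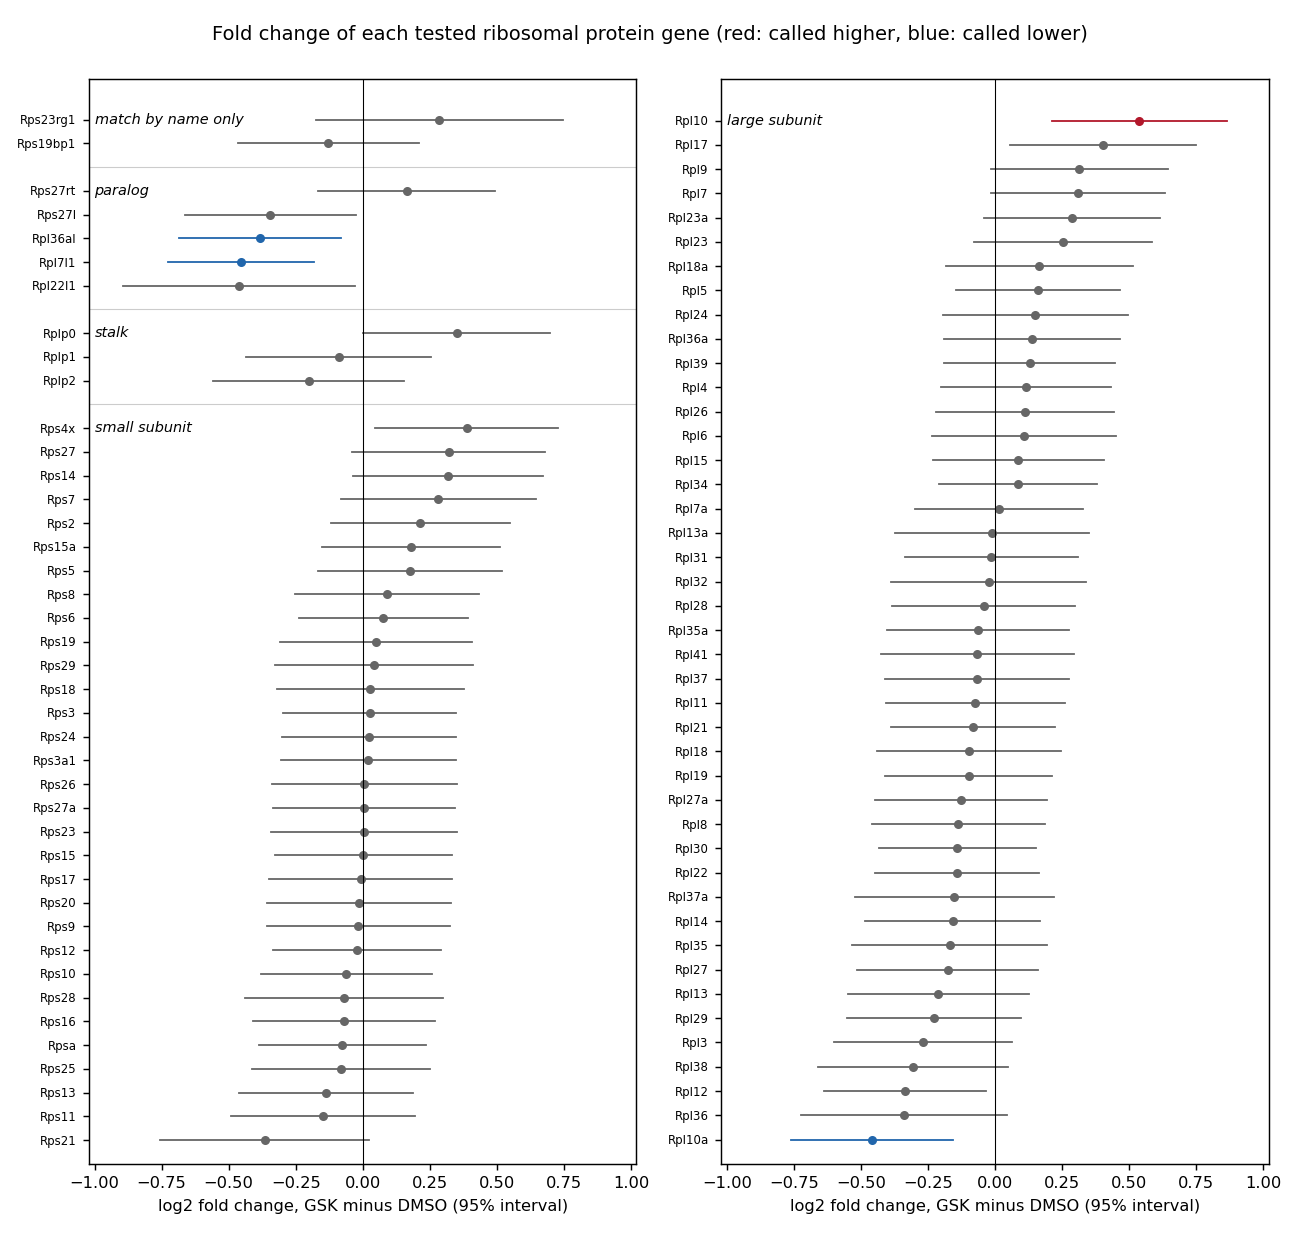
Each point is the log2 fold change of 1 tested gene (horizontal axis, GSK minus DMSO) with its 95% interval, grouped by role and ordered by value, red for called higher and blue for called lower. Rpl10 stands at the top of the large subunit at 0.54 and Rpl10a at its bottom at -0.46, while 4 of the 5 tested paralogs lie below 0.

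Among the 31 small subunit genes, whose proteins read the messenger RNA, none was called (0 of 31 by limma, with 1 at an unadjusted p under 0.05). Of all genes 36.1% were called. Without GSK 1, 7 of 31 were called higher and none lower, against 20.4% and 21.4% of all genes. The 7 are close to the share of all genes, so that count is no result about small subunit genes. With all 6 libraries their log2 fold changes ran from -0.37 for Rps21 to 0.39 for Rps4x, with a median of 0.00, 19 above 0 and 12 below. All 31 intervals lay within -0.76 to 0.73. Rps4x, an X-linked gene, measured 11734, 10605 and 11919 normalised reads in DMSO 1 to 3 and 11914, 16198 and 17213 in GSK 1 to 3. GSK 2 and GSK 3 lay above all DMSO libraries and GSK 1 lay among them. The log2 fold change of Rps4x was 0.39 (SE 0.16, limma adjusted p = 0.0702), and 0.55 without GSK 1 (adjusted p = 3.33e-05). Rps6, the classical substrate of the S6 kinases, had a log2 fold change of 0.08 (adjusted p = 0.73 by limma), and Rpsa, also described as a laminin receptor, -0.08 (adjusted p = 0.72 by limma).

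In the large subunit, whose proteins surround the site of peptide bond formation, 1 of 43 genes was called higher and 1 lower. Of all genes 17.0% were called higher and 19.1% lower. The median log2 fold change of the 43 genes was -0.06. Without GSK 1, 15 were called higher and 1 lower, against 20.4% and 21.4% of all genes, and the median was 0.14. Rpl10 (ENSMUSG00000008682, chrX:74270812-74273135) is among the last proteins to join the subunit and lies close to that site. Its level was 6893, 6954 and 7937 normalised reads in DMSO 1 to 3 and 8652, 11095 and 12122 in GSK 1 to 3. Every GSK library was above every DMSO library, with GSK 1 nearest to them. The mean was 7262 ± 586 with DMSO and 10623 ± 1783 with GSK (SD, n = 3 each), a log2 fold change of 0.54 (SE 0.16, limma adjusted p = 0.0107). Leaving out DMSO 1, DMSO 2 or GSK 2 raised the adjusted p to 0.067, 0.0662 or 0.0634 at fold changes of 0.50 to 0.51, and without GSK 1 the fold change was 0.68. One pseudogene of Rpl10 is in the table and 5 are in the annotation, so reads could have been divided among near-identical copies.

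Rpl10a (ENSMUSG00000037805, chr17:28328471-28331033) forms the L1 stalk, which moves the spent transfer RNA out of the ribosome. It measured 5035, 5392 and 6123 normalised reads in DMSO 1 to 3 and 3513, 4125 and 4426 in GSK 1 to 3. All GSK libraries lay below all DMSO libraries. The means were 5517 ± 555 and 4021 ± 465 (SD, n = 3 each), a log2 fold change of -0.46 (SE 0.15, limma adjusted p = 0.0175). The call was lost without DMSO 2, DMSO 3 or GSK 2, with adjusted p of 0.0617, 0.0995 and 0.0579, and it held without GSK 1 at -0.36 (adjusted p = 0.00546). An exon of Rpl10a overlaps a noncoding gene on the opposite strand that is not in the table, and Smart-seq2 does not mark strand.

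Several other large subunit genes were near the threshold. Rpl17, which lines the exit tunnel of the growing peptide, measured 4250, 4142 and 4768 normalised reads in DMSO 1 to 3 and 4299, 6634 and 6806 in GSK 1 to 3. As for Rps4x, GSK 1 lay among the DMSO libraries and the other GSK libraries above them. Its log2 fold change was 0.40 (SE 0.17, limma adjusted p = 0.0647), and 0.62 without GSK 1 (adjusted p = 1.28e-05). Rpl7 and Rpl9 had the same order of libraries, with log2 fold changes of 0.31 each (limma adjusted p = 0.127 and 0.13), and 0.45 and 0.49 without GSK 1. Rpl12, at the base of the stalk, measured 4549, 4813 and 5250 normalised reads in DMSO 1 to 3 and 3323, 4383 and 3922 in GSK 1 to 3. Its groups did not overlap, with a log2 fold change of -0.34 (SE 0.14, limma adjusted p = 0.0746), and edgeR on the recovered reads called it lower (adjusted p = 0.0461). Exons of Rpl12 overlap those of Lrsam1 on the opposite strand.

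The stalk recruits the elongation factors, and none of its 3 genes was called (limma, with 1 at an unadjusted p under 0.05). Of all genes 36.1% were called. Rplp0, the scaffold on which the acidic proteins sit, measured 12926, 13635 and 13797 normalised reads in DMSO 1 to 3 and 13423, 18786 and 20004 in GSK 1 to 3. GSK 2 and GSK 3 were above all DMSO libraries and GSK 1 was between them. The log2 fold change of Rplp0 was 0.35 (SE 0.17, limma adjusted p = 0.109), and 0.53 without GSK 1 (adjusted p = 4.09e-05). The acidic proteins Rplp1 and Rplp2 had log2 fold changes of -0.09 and -0.20 (limma adjusted p = 0.707 and 0.379), and 0.10 and -0.01 without GSK 1.

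**Figure D4:**
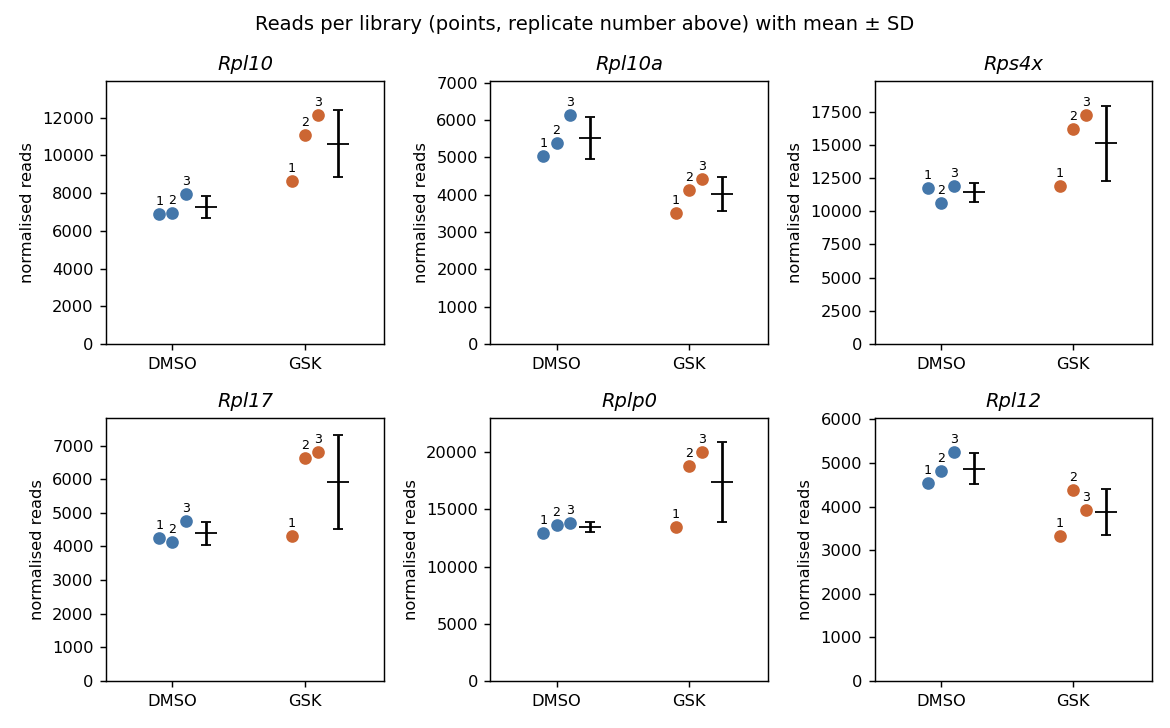
Normalised reads (vertical axes, from 0) of 6 core genes in each library, with the replicate number above each point and the group mean ± SD beside the points. All GSK points of Rpl10 lie above the DMSO points and those of Rpl10a and Rpl12 below, while GSK 1 lies among the DMSO points for Rps4x, Rpl17 and Rplp0.

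To describe the members relative to each other, libraries were rescaled so that the median core gene had the same level in each, an alternative added after the data were seen. With all 6 libraries, 4 members were then called higher and 1 lower, against 8.49% and 10.6% of all genes. The higher genes were Rpl10 at 0.55 (SE 0.12, limma adjusted p = 0.00477), Rps4x at 0.40 (adjusted p = 0.0296), Rpl17 at 0.41 (adjusted p = 0.0367) and Rplp0 at 0.36 (adjusted p = 0.0368). The lower gene was Rpl10a at -0.45 (adjusted p = 0.0281). Rpl7l1 and Rpl36al kept log2 fold changes of -0.45 and -0.38 but were not called (adjusted p = 0.103 and 0.117). Without GSK 1, 6 members were called higher, against 10.4% of all genes, and 3 lower, against 24.7%, on a scale where the median of all genes was -0.13. On this scale Rpl10, Rps4x, Rpl17 and Rplp0 lay above the median core gene and Rpl10a below it. The core genes themselves set the scale, which takes out any shift they share, so these calls are a description only. With all 6 libraries, 5 of 84 members were called on it, against 19.1% of all genes.

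Among the paralogs, 4 of the 5 tested had lower values in GSK libraries. Of the 8, 5 had enough reads to test and 2 of these were called lower, with a median log2 fold change of -0.38. The 40% called is close to the 36.1% of all genes, so the count is no result about paralogs. Without GSK 1 the median was -0.19 and 1, Rpl7l1, was called. Rpl7l1 (ENSMUSG00000063888, chr17:46773907-46782672) is found in large subunit precursors in the nucleolus. It measured 1508, 1380 and 1280 normalised reads in DMSO 1 to 3 and 891, 1028 and 1130 in GSK 1 to 3, with no overlap of the groups. Its log2 fold change was -0.45 (SE 0.13, limma adjusted p = 0.0102), lost without DMSO 1 (adjusted p = 0.0672) and -0.36 without GSK 1 (adjusted p = 0.00789). Rpl36al (ENSMUSG00000049751, chr12:69182731-69184083), a close copy of Rpl36a, measured 1168, 1340 and 1389 normalised reads in DMSO 1 to 3 and 789, 1124 and 1105 in GSK 1 to 3. All GSK libraries were below all DMSO libraries and GSK 1 was the lowest. Its log2 fold change was -0.38 (SE 0.15, limma adjusted p = 0.0434), and the call was lost without any 1 of DMSO 1, DMSO 2, DMSO 3 or GSK 1, with adjusted p of 0.0519, 0.136, 0.148 and 0.104 and a fold change of -0.22 without GSK 1. Its exons overlap those of a gene on the same strand that is not in the table.

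Rps27l, a p53 target, measured 1331, 1497 and 1661 normalised reads in DMSO 1 to 3 and 905, 1272 and 1403 in GSK 1 to 3. The groups overlapped, and the log2 fold change was -0.34 (SE 0.15, limma adjusted p = 0.0845), -0.47 without GSK 3 (adjusted p = 0.0156) and -0.16 without GSK 1 (adjusted p = 0.259). Rpl22l1, an RNA binding paralog of Rpl22, measured 1762, 1896 and 2351 in DMSO 1 to 3 and 990, 1714 and 1768 in GSK 1 to 3. GSK 1 was far below the rest and GSK 3 just above DMSO 1. The log2 fold change of Rpl22l1 was -0.46 (SE 0.20, limma adjusted p = 0.0889), and it passed without GSK 2 or without GSK 3 (adjusted p = 0.0446 and 0.0483) but was -0.19 without GSK 1. Rps27rt, a copy of Rps27 made by retrotransposition and nearly identical to it, had a log2 fold change of 0.16 (limma adjusted p = 0.447), and its reads cannot be surely told from those of Rps27.

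A ratio of a paralog to its partner within a library does not depend on how libraries are scaled, and 5 pairs were compared this way. Rps27l stood at 39.6%, 39.5% and 36.4% of the reads of Rps27 in DMSO 1 to 3 and at 25.2%, 22.4% and 25.3% in GSK 1 to 3. Rpl7l1 stood at 17.7%, 17.9% and 15.5% of Rpl7 in DMSO and at 10.7%, 9.20% and 10.1% in GSK libraries. Rpl36al stood at 48.3%, 51.4% and 46.6% of Rpl36a in DMSO and at 35.1%, 34.1% and 32.7% in GSK libraries. In these 3 pairs GSK 1 was close to the other GSK libraries, and the groups were well apart. Rpl22l1 stood at 79.4%, 78.3% and 86.5% of Rpl22 in DMSO and at 53.8%, 66.1% and 77.6% in GSK libraries, apart by less than 1 percentage point. Rps27rt overlapped, with 5.44% ± 0.742 and 4.87% ± 0.444 of Rps27 (SD, n = 3 each). The differences of the group means were -14.2 percentage points for Rps27l, -7.00 for Rpl7l1, -14.8 for Rpl36al and -15.6 for Rpl22l1, each with p = 0.1 in a two-sided exact permutation test, the smallest that 3 against 3 allows (0.125 after Benjamini-Hochberg adjustment over the 5 pairs). For Rps27rt the exact permutation p was 0.4. Without GSK 1 the differences were -14.6, -7.35, -15.3 and -9.58 percentage points in the same order.

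**Figure D5:**
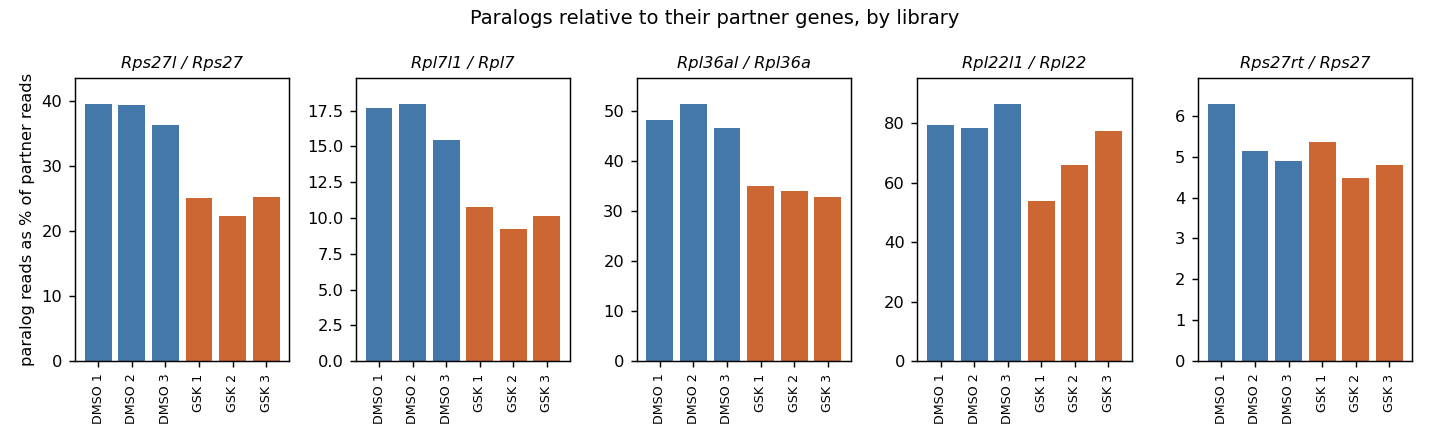
Reads of 5 paralogs as a percent of the reads of their partner genes (vertical axes, from 0, with a scale of their own in each panel), 1 bar per library. The GSK bars are below the DMSO bars for Rps27l, Rpl7l1, Rpl36al and Rpl22l1 and overlap with them for Rps27rt.

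With all 6 libraries, the partner genes were not called. Rps27 had a log2 fold change of 0.32 (limma adjusted p = 0.158), Rpl7 0.31, Rpl36a 0.14 (adjusted p = 0.529) and Rpl22 -0.14 (adjusted p = 0.478), so the lower ratios came with lower paralog values in each pair and with higher partner values in 3 of 4. Without GSK 1, Rps27, Rpl7 and Rpl36a were called higher, at 0.53, 0.45 and 0.33 (limma adjusted p = 0.000432, 0.000349 and 0.0137), and Rpl22 was at -0.01. Rpl3l, a paralog of heart and skeletal muscle, and Rpl10l and Rpl39l, known from the testis, had 0 to 6, 0 to 2 and 0 to 4 reads per library and were not tested. The genes that match by name only, Rps19bp1 and Rps23rg1, measured 258 ± 36.3 and 79.1 ± 18.5 normalised reads with DMSO and 237 ± 39.5 and 96.5 ± 21.5 with GSK (SD, n = 3 each) and were not called.

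Core genes spanned a wide range of levels. Per kilobase of transcript, the highest DMSO levels were 13555 ± 2259 normalised reads for Rps29, 12361 ± 1489 for Rpl41 and 12242 ± 2132 for Rps28 (SD, n = 3), and in GSK libraries these genes stood at 14120 ± 3384, 12003 ± 2849 and 11777 ± 2739. These 3 encode some of the smallest ribosomal proteins, and their levels lie within each other's spread. The lowest were Rpl29 at 714 ± 120, Rps15a at 1058 ± 94.1 and Rpl22 at 1198 ± 123 per kilobase. The length used for Rps15a, 5154.5 bases, is the median of annotated transcripts that include long ones, so its level per kilobase is understated. All 3 of these low genes also overlapped between the groups. Across the 77 core genes, the log2 fold change correlated weakly with the DMSO level (Spearman rho 0.28, and -0.25 over all genes), with GC content (-0.31, and -0.04) and with transcript length (0.11). These are descriptions across genes that share the same 6 libraries, and genes are not independent replicates.

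Summed over the 87 genes, ribosomal protein transcripts took 4.82%, 4.89% and 5.58% of normalised reads in DMSO 1 to 3 and 4.31%, 5.26% and 5.48% in GSK 1 to 3. The groups overlapped, with GSK 1 the lowest and DMSO 3 the highest of all. The means were 5.10% ± 0.422 and 5.02% ± 0.622 (SD, n = 3 each), and their difference of -0.08 percentage points was smaller than either SD. Without GSK 1 the GSK mean was 5.37%, a difference of 0.27. The share of genes overlapping ribosomal RNA was 21.1% ± 0.799 in DMSO and 24.4% ± 1.54 in GSK. With those genes left out of the total, the ribosomal protein share was 6.46% ± 0.573 and 6.64% ± 0.848, and the GSK mean was 7.13% without GSK 1. The reads of small subunit genes were 0.745 ± 0.0167 times those of large subunit and stalk genes with DMSO and 0.755 ± 0.00736 with GSK (SD, n = 3 each), a difference within the spread of the DMSO libraries. In GSK 1 this ratio was 0.749, between the DMSO values of 0.730 and 0.763, so small and large subunit genes were low in that library to a similar degree.

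Larger fold changes were measured in other genes of the pathway. Fau and Rack1, ribosomal proteins that the naming rule does not cover, had log2 fold changes of 0.15 and 0.06 and did not pass (limma adjusted p = 0.515 and 0.769). Of the chaperones and importins of ribosomal proteins, 0 of 17 were called higher and 11 lower (64.7% called, against 36.1% of all genes), with a median log2 fold change of -0.60. The importin Ipo5 measured 3255, 3770 and 3529 normalised reads in DMSO 1 to 3 and 979, 829 and 685 in GSK 1 to 3, a log2 fold change of -2.09 (SE 0.14, limma adjusted p = 9.56e-10). Grwd1, the chaperone of Rpl3, fell by 1.43 on the log2 scale, Ltv1, a small subunit assembly factor that binds Rps3, by 1.07, and the importin Kpnb1 by 0.79. The transcripts of Rpl3 and Rps3, the proteins named here for Grwd1 and Ltv1, did not pass the main test. Their log2 fold changes were -0.27 and 0.03 (limma adjusted p = 0.20 and 0.92). With equal library totals Rpl3 was called lower. The cargo of the importins was not examined. Of 17 tested chaperones and importins, 8 to 12 were called lower in each of the other settings run.

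Translation factors outside the ribosome were called in both directions. Of 28 initiation factors, 3 were called higher and 7 lower, with a median of -0.15. The 35.7% called is close to the 36.1% of all genes, so the count is no result about initiation factors. Eif5a, which helps the ribosome through difficult peptide bonds, fell by 1.06 on the log2 scale, Eif1ax by 0.77 and Eif4g1 by 0.61, while Eif1, which guards start codon choice, rose by 0.60. Without GSK 1, 9 were called higher and 8 lower with a median of -0.05, against 20.4% and 21.4% of all genes. Without DMSO 1 or DMSO 2 only 4 were called lower, against 16.2% and 14.9% of all genes. Of 10 elongation factors and other transcripts with a terminal oligopyrimidine tract, Pabpc1, the poly(A) binding protein, was called higher at 0.44 and Eef1d and Nap1l1 lower at -0.63 and -0.73. The 30% called in this list is below the 36.1% of all genes. The call of Pabpc1 was lost without DMSO 1, DMSO 2, GSK 2 or GSK 3. Eef1a1 and Eef2, the main elongation factors, did not pass, at 0.27 and 0.22 (limma adjusted p = 0.233 and 0.272).

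In the mTORC1 list, 4 of 18 were called higher and 4 lower, 44.4% in all against 36.1% of all genes. Sesn1 and Sesn2, which restrain mTORC1 when amino acids are short, rose by 1.00 each on the log2 scale, while Mtor, its kinase, fell by 0.56 and Larp4, an RNA binding protein, by 0.64. Of 9 genes listed for ribosomal stress and p53, 2 were called higher, Cdkn1a by 2.17 and Nop53 by 0.41, and none lower. The 22.2% called is below the 36.1% of all genes. This list includes the members Rpl5, Rpl11, Rpl23 and Rps27l. The call of Nop53 was lost without DMSO 1, DMSO 2, DMSO 3, GSK 2 or GSK 3. Without GSK 1 the list held 4 higher genes, among them the members Rpl5 and Rpl23, where 20.4% of all genes were called higher. Rpl5 and Rpl11, which bind Mdm2 together with 5S ribosomal RNA, did not pass, at 0.16 and -0.07 (limma adjusted p = 0.424 and 0.752). Without GSK 1 they were at 0.25 and 0.12, and Rpl5 passed (limma adjusted p = 0.0341). Of 11 genes of ribosome quality control, 1 was called higher, Gtpbp2 at 0.81, and 4 lower, led by the recycling factor Abce1 at -1.14 and by Ltn1 at -0.57, 45.5% in all against 36.1% of all genes. Without GSK 1 there were 2 higher and 5 lower, against 20.4% and 21.4% of all genes. With libraries scaled to the median core gene, where 10.6% of all genes were called lower, none of the mTORC1 list, 1 of the quality control list and 3 of the initiation list were. The medians of these lists went from -0.12, -0.14 and -0.15 to -0.11, -0.13 and -0.14.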

How the data were processed

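The samples were 6 bulk Smart-seq2 libraries, 3 DMSO and 3 GSK. The authors deposited 1 table of normalised read counts, a signal per gene and library. Per the submitters' processing notes, STAR and DESeq and the builds GRCm38 and mm10 were used, with no role given. How reads were counted, on which annotation and with which strand setting, is not given in the sources used here. The table's 118098 rows repeat each gene's value, so 1 row per gene was kept. In every library 100% of values were whole multiples of 1 read within 0.01, so whole reads were recovered for count tests. Within groups, pairs of libraries gave a chi-square of 4.12 to 12.7 per degree of freedom, beyond sampling noise.

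The main test, limma 3.58.1 (R 4.3.3; trend and robust options on), ran on log2(value + 1), keeping 15073 genes whose mean reached 10, with group as the only term, Benjamini-Hochberg adjusted over all of them at 0.05. Fold changes are on this scale, which understates low genes. Alternatives included edgeR 4.0.16, which called 5536 genes, and DESeq2 1.42.0, which called 5129. Single values per library were compared by exact permutation tests. Those planned for the ribosomal protein share and the subunit ratio are not printed, because the members were chosen with results known. The members, gene lists and tests were chosen with earlier results of these data known.

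Named genes were every called member, the next 8 by p, paralogs and their partners, the 3 highest and 3 lowest core genes per kilobase, untested members and up to 4 called genes per list. Other genes, among them Rps6, Rpsa, Rps21, Rpl3, Rpl5, Rpl11, Rps3, Eef1a1 and Eef2, were named after their values were seen. Listed paralogs Rpl26l1, Rpl37rt and Rps4l were not found as members, and Bxdc2, Pict1 and Znf598 are not symbols of the table. All 87 of 87 members were matched by identifier to GENCODE vM21 on GRCm38, which gave coordinates and lengths. The length is the median of the principal, best supported protein coding transcripts. The annotation holds 292 pseudogenes named for 60 members, against 9 for 6 members in the table, and exons of 24 members overlap another gene, 20 of them on the opposite strand. How the authors counted reads of such copies is not given. On simulated counts for this comparison, the test found 80.2% of genes changed by 1 on the log2 scale and 99.0% of those changed by 2, with 16 false among 189 calls over 14903 genes. Only 200 genes were given a change, and no simulated library had a shift shared by many genes. These rates therefore do not carry over to the members, whose largest change was 0.54. One listed gene is not reported here.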

Additional observations from a re-analysis of the deposited data

How the results depend on the processing

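The number of members called, 4 with 1 higher and 3 lower, depended on the settings. DESeq2 called 9 (5 higher), edgeR 2 higher, array weights 24 (21 higher, where 50.6% of all genes were called), equal library totals 10 (2 higher, 8 lower), equal totals without globin and ribosomal-RNA-overlapping genes 12 (8 higher, 36.3% of all genes), no filter on low values 9 (4 higher, 5 lower), and limma without trended and robust priors 1 (0 lower). Scaling to the median core gene gave 4 higher and 1 lower (19.1%), and 9 (6 higher, 35.1%) without GSK 1. With 1 library left out, 1 to 25 were called, 0 to 23 higher and 1 to 5 lower (27.1% to 41.8%). The 25 and 23 were without GSK 1, where the share was 41.8%. The replicate block gave 7 (2 higher, 5 lower, 37.4%). Same-numbered libraries did not deviate together (correlations of 0.01, -0.02 and 0.05), so the numbers were not read as pairs. TMM factors, a mean of at least 100, pseudocounts of 0.5 and 10 and protein coding genes alone kept each count within 1.5 times (35.8% to 41.6%). The median log2 fold change of the members stayed between -0.12 and 0.15 in the settings run. Changing 1 choice at a time, the difference in share lay between -0.31 and 0.27 percentage points and that in the subunit ratio between 0.003 and 0.023. Without GSK 1 and with another denominator as well, the share differed by 0.66 points without ribosomal-RNA-overlapping genes and 0.70 over protein coding reads, and the ratio without members that have pseudogenes by 0.026. Among 21 alternatives, Rpl10 lost its call in 3, Rpl10a in 4, Rpl36al in 8 and Rpl7l1 in 3, and none of the 4 changed direction. The cause of these shifts was not tested. The core gene with the fewest reads, Rpl29, averaged 515 normalised reads in DMSO. The parts that depth and the 3 libraries a group play in the precision were not tested.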

Other observations

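The members lie on 19 chromosomes, and the 4 core genes on the X chromosome had log2 fold changes of 0.54 (Rpl10), 0.39 (Rps4x), 0.14 (Rpl36a) and 0.13 (Rpl39), with a median of 0.26, against -0.01 for all 77 core genes. With all 6 libraries limma called Rpl10 alone among these, DESeq2 and equal library totals, among other settings, also called Rps4x, and without GSK 1 limma called all 4 higher. The group was picked after its values were seen. Introns or exons of 30 core genes hold 58 small nucleolar RNA genes, which guide the modification of RNA. The median log2 fold change of these 30 genes was -0.01, and that of the 47 core genes without one was also -0.01.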
